A study of Mus musculus with 8 samples.

Results

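The cytosolic ribosome of mouse CD8+ T cells was described here through the genes of its proteins. The members were chosen by symbol, from all symbols that start with Rpl or Rps and a number together with Rplp0, Rplp1, Rplp2 and Rpsa. The Rps6k kinase genes and symbols with -ps, a mark of pseudogenes, were left out. Rps4l and Rpl37rt stayed in by symbol, although the gene annotation lists them as transcribed processed pseudogenes. The choice used no measured value. It took 88 of the 24421 gene symbols in the deposited tables: 46 of the large subunit, 31 of the small subunit, 8 paralogs whose symbol ends in l or in l and a digit, and 3 other symbols (Rpl37rt, Rps27rt and Rps19bp1, of which the last encodes a protein that binds a ribosomal protein and is not a part of the ribosome). The 4 LKB1-deficient and 4 control libraries were made from naive CD8+ T cells after 48 hours on plates coated with antibodies against CD3 and CD28. The Stk11 gene encodes LKB1, the kinase upstream of AMPK. The labels call the first group LKB1-deficient and the second LKB1 wild type, and they state neither the mouse strain, nor how LKB1 was removed, nor the age of the mice. Whether each replicate is a different animal is not stated either; the p-values then cover the variation among these libraries, which may be technical.

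Each ribosome has a large subunit, which joins amino acids, and a small subunit, which reads the mRNA. Ribosomal protein mRNAs are among the most abundant in dividing cells, and activated T cells build many ribosomes before they divide. In mammals most of these mRNAs begin with a run of pyrimidines, the terminal oligopyrimidine (TOP) motif, through which mTORC1 and LARP1 set how much they are translated. AMPK is known to restrain mTORC1.

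The runs of the members were looked up first, because the TOP motif is what these mRNAs share beyond the rule. A run was called where a C followed by at least 4 more pyrimidines started within 5 bases of the annotated start, on the gene's own strand. RefSeq start windows on GRCm38.p6 were found for 57 of the 77 genes of both subunits, and 27 of them (47.4%) held such a run, against 5718 of 27025 genes (21.2%) in the whole table. The windows below run from 10 bases before the annotated start through its first 20 bases, and the capitals mark the run. The first 3 are of members lower in LKB1-deficient cells with a run, and Rps6 is shown as the member phosphorylated by S6 kinase. The last 4 hold no such run at their annotated start and are of Rpl36a and Rpl22, which fell, and of Rpl24 and Rpl7l1, which rose.
Rpl38, chr11:114668570-114668599, plus strand: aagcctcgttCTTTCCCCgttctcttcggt
Rps9, chr7:3704031-3704060, plus strand: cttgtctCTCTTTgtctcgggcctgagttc
Rpl22l1, chr3:28805498-28805527, plus strand: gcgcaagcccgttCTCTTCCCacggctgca
Rps6, chr4:86857348-86857377, minus strand: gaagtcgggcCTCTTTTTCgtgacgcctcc
Rpl36a, chrX:134585644-134585673, plus strand: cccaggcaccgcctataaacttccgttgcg
Rpl22, chr4:152325716-152325745, plus strand: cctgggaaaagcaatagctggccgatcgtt
Rpl24, chr16:55966265-55966294, plus strand: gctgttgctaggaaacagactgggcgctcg
Rpl7l1, chr17:46782637-46782666, minus strand: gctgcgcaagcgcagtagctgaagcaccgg

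The depth was unequal between the groups. Gene counts came to 3454388 to 6356125 per LKB1-deficient library and 7090252 to 12211930 per control library, so low members were measured less precisely in LKB1-deficient cells. Alignments to more than 1 place came to 2.21 to 2.65 per gene count in LKB1-deficient libraries and 2.92 to 3.5 in control libraries, which bears on genes with near-identical copies. Of 10 CD8+ T cell markers, 9 were above 1 CPM (gene counts divided by the TMM-scaled library size), and their summed level was 3380 to 4540 CPM in LKB1-deficient libraries and 5020 to 5340 CPM in control libraries. NK cell markers summed to 83.7 to 154 CPM in LKB1-deficient and 66.3 to 116 CPM in control libraries. That sum rested on Eomes, at 82.9 to 151 CPM and 65.9 to 116 CPM. Ncr1 and Klrb1c reached at most 0.583 and 2.04 CPM in any library. Platelet markers summed to 30.1 to 73.3 CPM in LKB1-deficient and 16.8 to 42.2 CPM in control libraries, and mast cell and basophil markers to 4.22 to 20.7 CPM and 2.96 to 4.54 CPM. Markers of B cells, CD4+ T cells and myeloid cells summed to at most 12.6 CPM in any library. All 5 red cell markers were at 0 in every library. Stk11 stood at 76.5, 70.8, 107 and 64.4 CPM in LKB1-deficient replicates 1 to 4, against 101, 67.8, 82 and 77 CPM in control replicates 1 to 4 (log2 fold change -0.03 ± 0.18, SE, adjusted p = 0.911). Since the tags come from 3' ends and the deleted exons are not named in the labels, Stk11 does not check the genotype.

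The first question was whether the ribosomal protein mRNAs as a group stood at another level in LKB1-deficient cells. They took a smaller share of all gene counts there. The share was 4.91%, 3.89%, 5.03% and 3.79% in LKB1-deficient replicates 1 to 4, against 6.42%, 5.91%, 7.28% and 7.45% in control replicates 1 to 4. The groups did not overlap, and the means were 4.4 ± 0.654% in LKB1-deficient and 6.77 ± 0.726% in control libraries (SD, n = 4 each), a difference of -2.36 percentage points. The lowest shares among LKB1-deficient libraries were those of replicates 2 and 4. Reads outside annotated genes moved with the groups as well, at 14.9% to 17.5% in LKB1-deficient and 12.1% to 14.3% in control libraries, without overlap, and their part in the shares was not tested. In these bulk libraries, fewer cells of a type and less RNA per cell cannot be told apart.

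Both subunits had this order. Large subunit genes took 2.38 ± 0.325% of gene counts in LKB1-deficient libraries and 3.59 ± 0.383% in control libraries, and small subunit genes 1.87 ± 0.318% and 2.98 ± 0.335%. The ratio of large to small subunit counts was 1.25, 1.3, 1.23 and 1.33 in LKB1-deficient replicates 1 to 4 and 1.15, 1.25, 1.23 and 1.19 in control replicates 1 to 4. These ratios overlapped.

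Gene by gene, 85 members had enough counts to be tested, and 25 of them (29.4%) fell in LKB1-deficient cells while 3 (3.53%) rose at an adjusted p of 0.05 (edgeR quasi-likelihood test, Benjamini-Hochberg adjustment over 10396 genes). Over all tested genes 10.1% fell and 12.4% rose. The falls were small, from 1.38-fold to 1.73-fold. The median log2 fold change of the 85 was -0.35, against 0.00 over all tested genes, with 68 negative and 17 positive values. Every LKB1-deficient library lay below every control library in 34 members, and above every control library in 1; the same held for 14.1% and 12% of all tested genes. Each of the 25 members that fell had libraries that did not overlap.

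**Figure D1:**
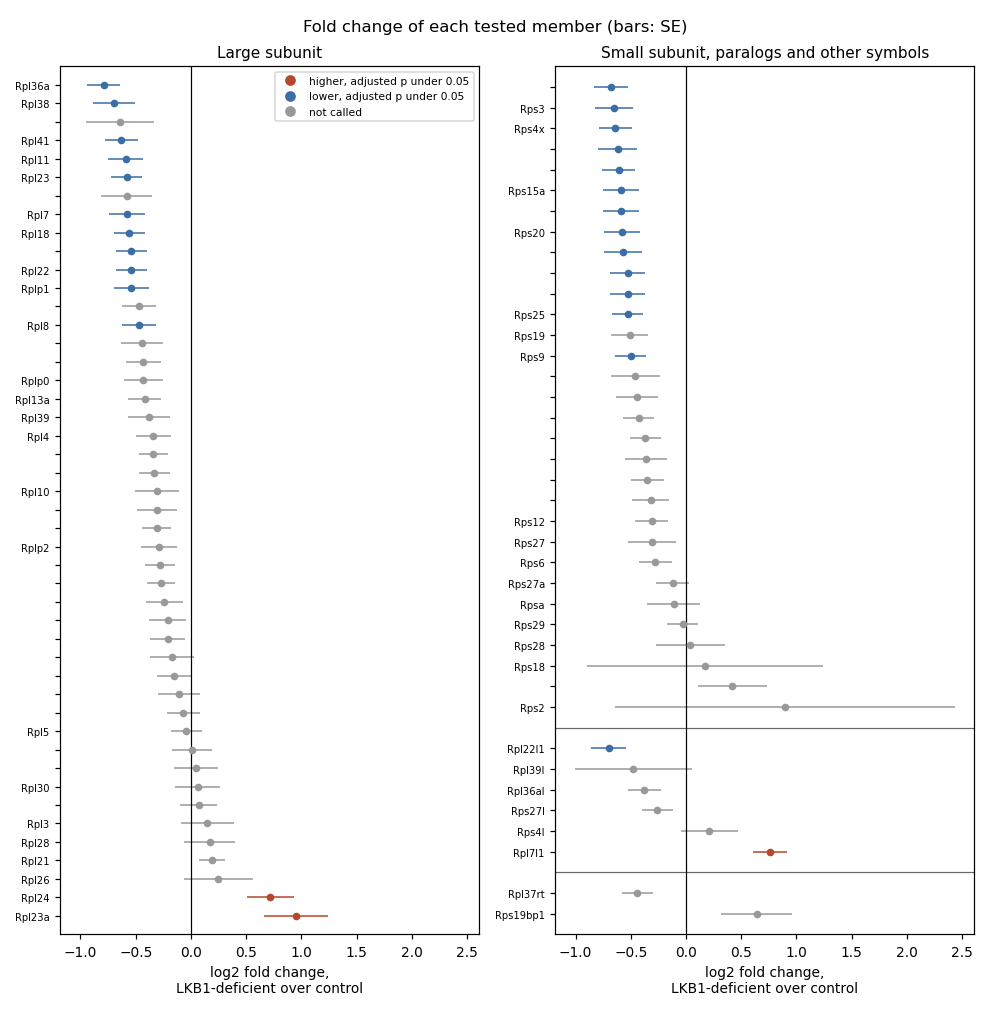
Log2 fold change of LKB1-deficient over control for each of the 85 tested members, with bars of 1 SE; blue points passed as lower, red points as higher and grey points did not pass an adjusted p of 0.05, with the symbol printed for members named in the text. Most points lie left of 0 between -0.79 and 0, 25 are blue and 3 are red, and Rps2 and Rps18 have by far the widest bars.

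Ribosomal protein mRNAs are short, and short mRNAs of other kinds were lower too. The median length of the principal transcript was 775 bases for the members and 2751 bases for all tested genes. Among tested genes that are no member, those of up to 750 bases had a median log2 fold change of -0.38 and 24.9% of them fell, those over 750 and up to 1500 bases had -0.25 and 20.2%, those over 1500 and up to 3000 bases had -0.07 and 10.8%, and those over 3000 bases had 0.22 and 4.46%. Of the 77 subunit genes, 34 were at or under 750 bases and 70 were at or under 1500 bases. The members' median of -0.35 and share of 29.4% thus stood beside -0.38 and 24.9% in the shortest class and -0.25 and 20.2% in the next. With each library's trend on the length of the longest transcript removed, 5 members fell, 4 rose and the median was -0.07. With the length of the principal transcript, an alternative chosen after the data were seen, 3 fell (Rps3, Rps15a and Rps20), 5 rose (Rpl7l1, Rpl23a, Rpl24, Rpl21 and Rps29) and the median was 0.00.

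**Figure D2:**
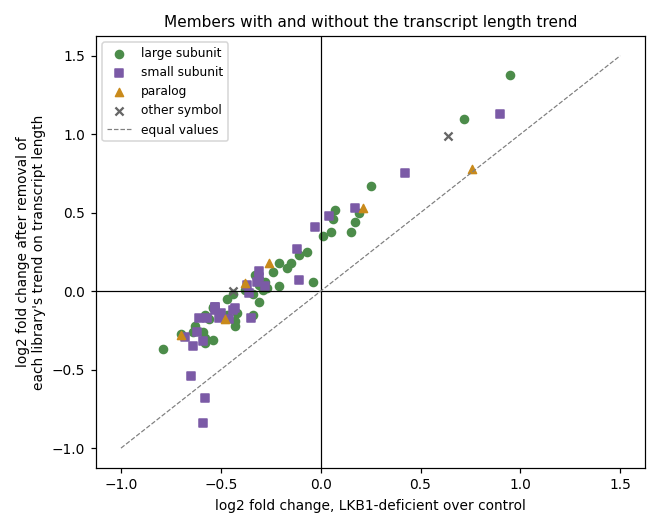
Log2 fold change of the tested members (x axis, LKB1-deficient over control) against the same value after each library's trend on principal transcript length was removed (y axis); circles are large subunit genes, squares small subunit genes, triangles paralogs and crosses other symbols. Most points lie above the dashed line of equal values, and the median is 0.00 on the y axis and -0.35 on the x axis.

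The call counts also rested on single libraries. The 25 lower members numbered 2 when control replicate 3 was left out and 5 when control replicate 4 was. Leaving out LKB1-deficient replicate 2 gave 8, and leaving out LKB1-deficient replicate 4 gave 6. With both of these LKB1-deficient libraries left out, edgeR called 0 members lower and 0 higher, while 34 members were lower and 3 higher at an unadjusted p under 0.05. The median log2 fold change stayed between -0.42 and -0.31 with any single library left out and was -0.27 without both of those libraries. Rpl36a was called lower with each of the 8 libraries left out in turn.

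Large subunit genes were described by role. Of 46 tested, 11 (23.9%) fell, 2 (4.35%) rose and 33 did not pass, with a median log2 fold change of -0.31. Over all tested genes the shares were 10.1% lower and 12.4% higher. Rpl36a, on the X chromosome, had the lowest fold change and the smallest p of all members. It stood at 54.3, 58.9, 73.3 and 49.6 CPM in LKB1-deficient replicates 1 to 4, against 85.4, 111, 107 and 107 CPM in control replicates 1 to 4. It fell 1.73-fold (log2 fold change -0.79 ± 0.15, adjusted p = 0.00929), with no overlap between the groups. All of the 50-base stretches at the 3' end of Rpl36a occur in other annotated genes too. Alignments to more than 1 place were tallied apart from the genes, so its counts may leave out reads that match several genes. With the length trends removed its value was -0.43 (adjusted p = 0.0609) and -0.37 (adjusted p = 0.104).

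Rpl22 is known in mice as a gene that developing alpha-beta T cells need. It had 1370, 1570, 1590 and 1470 CPM in LKB1-deficient replicates 1 to 4, against 2200, 2210, 2200 and 2100 CPM in control replicates 1 to 4. The groups lay far apart, with a control spread of 51.7 CPM (SD), and Rpl22 fell 1.45-fold (log2 fold change -0.54 ± 0.14, adjusted p = 0.0213). Removing the trend on longest transcript length left -0.39 (adjusted p = 0.0621), and on principal transcript length -0.10 (adjusted p = 0.65).

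The stalk proteins recruit translation factors to the large subunit. Rplp1 had 1820, 1470, 1680 and 1580 CPM in LKB1-deficient libraries and 2230, 2070, 2300 and 2940 CPM in control libraries, and fell 1.45-fold (adjusted p = 0.0394). Its partners did not pass. Rplp0, the base of the stalk, was 1210 ± 228 CPM in LKB1-deficient and 1630 ± 242 CPM in control libraries (SD, n = 4 each, adjusted p = 0.105), and Rplp2 was 1680 ± 235 and 2050 ± 185 CPM (adjusted p = 0.201).

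Rpl5 and Rpl11, which bind the p53 ligase MDM2 together when ribosome assembly fails, differed in outcome. Rpl11 had 22.5, 16.3, 20.6 and 18.6 CPM in LKB1-deficient libraries and 24.9, 25.2, 34.6 and 33.3 CPM in control libraries, and fell 1.51-fold (adjusted p = 0.0305). Rpl5 was 37.6 ± 4.07 CPM in LKB1-deficient and 38.6 ± 5.19 CPM in control libraries (adjusted p = 0.856), and its sign changed in several alternatives. The difference between their fold changes was not tested.

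Rpl38, which in mouse embryos is needed for translation of some Hox mRNAs, carries the pyrimidine run printed above. It had 1810, 1240, 1880 and 1390 CPM in LKB1-deficient libraries and 2390, 2140, 2980 and 2740 CPM in control libraries, a 1.62-fold fall (adjusted p = 0.0287). Rpl41, which encodes a very short basic peptide, fell 1.55-fold, to 1060 ± 112 CPM in LKB1-deficient libraries against 1650 ± 184 CPM in control libraries (adjusted p = 0.0191). Rpl7, Rpl8, Rpl18 and Rpl23 fell as well, by 1.38-fold to 1.5-fold. Rpl8 was called in 1 of the 8 fits that leave out a library.

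Rpl4 and Rpl13a had among the highest counts of the large subunit genes and did not pass. Rpl4, the member with the highest mean CPM, had 4820, 5770, 6080 and 5170 CPM in LKB1-deficient libraries and 6450, 6040, 7750 and 7470 CPM in control libraries (adjusted p = 0.144), and the groups overlapped. Rpl13a had 2390, 2480, 2920 and 3210 CPM in LKB1-deficient libraries and 3610, 3670, 3810 and 3630 CPM in control libraries (adjusted p = 0.0716), with no overlap. Rpl3, near the site where peptide bonds form, was 39.3 ± 12.3 CPM in LKB1-deficient and 35.5 ± 9.4 CPM in control libraries (adjusted p = 0.668). Rpl10, which joins the subunit late, and Rpl39, at the tunnel the new chain leaves by, did not pass either (adjusted p = 0.264 and 0.155). The tested large subunit genes with the lowest counts were Rpl26, Rpl28 and Rpl30, and none passed. Their means were 3.27, 6.94 and 6.96 CPM in LKB1-deficient libraries and 2.77, 6.18 and 6.63 CPM in control libraries. At the 3' end, 67.5% of the stretches of Rpl26, 0% of those of Rpl28 and 70.2% of those of Rpl30 occur in other genes. Alignments to more than 1 place were tallied apart, so counts may understate the mRNA of genes that share sequence.

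Of the large subunit, Rpl23a and Rpl24 rose, and both had overlapping libraries. Rpl23a stood at 58.2, 195, 150 and 113 CPM in LKB1-deficient replicates 1 to 4, against 57.4, 74.2, 69.2 and 67.2 CPM in control replicates 1 to 4. LKB1-deficient replicate 1 lay within the control range (log2 fold change 0.95 ± 0.29, adjusted p = 0.0432). Rpl24 had 39.7, 39.6, 30.5 and 61.7 CPM in LKB1-deficient libraries and 24.9, 31, 22.2 and 25.6 CPM in control libraries (log2 fold change 0.72 ± 0.21, adjusted p = 0.0351). Their calls remained in 1 and 3 of the 8 fits that leave out a library, and both ended with total count scaling (adjusted p = 0.061 and 0.0543). At the 3' end, 68.2% of the stretches of Rpl23a and 68.9% of those of Rpl24 occur in other genes.

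**Figure D3:**
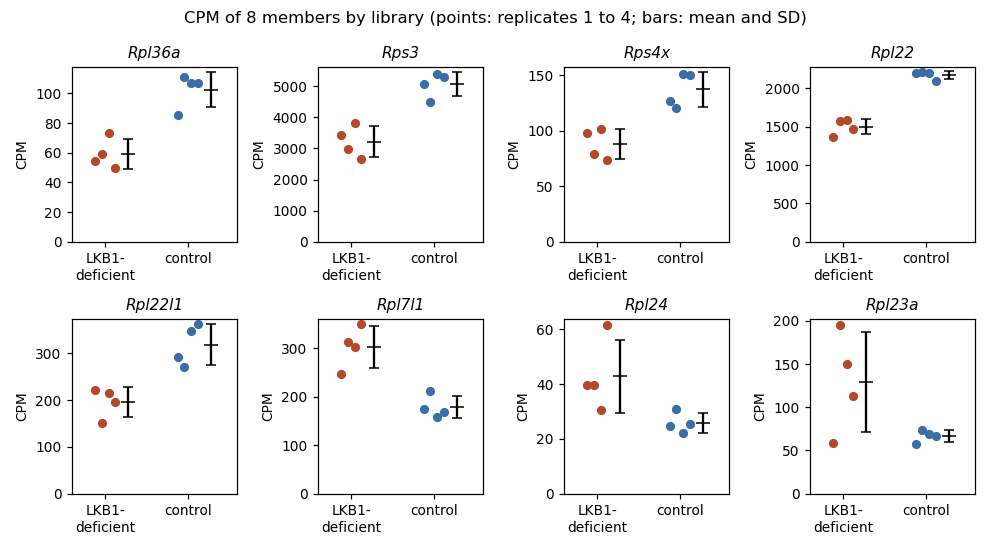
CPM of 8 members in each library, with LKB1-deficient libraries in red on the left and control libraries in blue on the right of each panel, and the mean and SD beside the points. Rpl36a, Rps3, Rps4x, Rpl22 and Rpl22l1 have all red points below all blue ones, Rpl7l1 has all red points above, and Rpl24 and Rpl23a overlap.

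Of 31 small subunit genes, all tested, 13 fell and 18 did not pass, with a median log2 fold change of -0.44. The edgeR test called 0 of them higher, as did DESeq2 and limma-voom, and 0 were higher at an unadjusted p under 0.05. The share that fell was 41.9%, against 23.9% of large subunit genes; the difference between the subunits was not tested. The medians after removal of the length trends were -0.13 and -0.11 for the small subunit and -0.02 and 0.02 for the large subunit.

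Rps3, at the channel where mRNA enters, kept its call in both length alternatives. It had 3420, 2980, 3820 and 2670 CPM in LKB1-deficient libraries and 5080, 4510, 5390 and 5300 CPM in control libraries. It fell 1.57-fold (log2 fold change -0.65 ± 0.17, adjusted p = 0.0225), and its values were -0.63 (adjusted p = 0.0203) and -0.54 (adjusted p = 0.0301) after the trends on longest and principal transcript length were removed. Rps15a and Rps20 kept theirs as well, with log2 fold changes of -0.84 and -0.68 after removal of the principal transcript length trend. Their principal transcripts, of 5130 and 3706 bases, are the only ones over 3000 bases among the members, so removing the trend moved their values down, below -0.59 for Rps15a and -0.58 for Rps20 with the trend kept. None of the 3' stretches of these 3 genes occurs in another annotated gene. Without both LKB1-deficient replicates 2 and 4 the adjusted p of Rps3 was 0.13.

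Rps4x, on the X chromosome, fell 1.56-fold, with 97.6, 79.3, 101 and 73.9 CPM in LKB1-deficient libraries and 127, 120, 151 and 150 CPM in control libraries (adjusted p = 0.016). All LKB1-deficient libraries lay below all control libraries. Rps9, whose window above holds a run, fell 1.41-fold, with 1540, 1980, 1800 and 1660 CPM in LKB1-deficient libraries and 2400, 2430, 2610 and 2440 CPM in control libraries (adjusted p = 0.0351). Rps25, which some viral mRNAs need to recruit ribosomes, fell 1.44-fold (adjusted p = 0.0256).

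Several small subunit genes with well-known roles did not pass. Rps6, the substrate of S6 kinase, was 44 ± 5.93 CPM in LKB1-deficient and 53.6 ± 8.23 CPM in control libraries (adjusted p = 0.19). Rps19, mutated in Diamond-Blackfan anaemia in humans, had 935, 705, 1010 and 740 CPM in LKB1-deficient libraries and 1050, 1120, 1310 and 1370 CPM in control libraries (adjusted p = 0.0553), with no overlap. Rpsa, also known as the laminin receptor, was 53.6 ± 15.6 and 57.6 ± 17.9 CPM in LKB1-deficient and control libraries (adjusted p = 0.774). Rps27a, made as a fusion with ubiquitin, was 33.2 ± 4.14 and 36.3 ± 5.69 CPM (adjusted p = 0.573), and Rps12, Rps27 and Rps28 did not pass (adjusted p = 0.157, 0.314 and 0.935).

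Rps2 and Rps18 had the largest standard errors of all members, and neither followed the groups. Rps2 had 15.8, 12.5, 569 and 575 CPM in LKB1-deficient replicates 1 to 4, against 597, 8.94, 11.8 and 13.2 CPM in control replicates 1 to 4 (log2 fold change 0.90 ± 1.54, adjusted p = 0.696). Rps18 had 38, 25.6, 434 and 316 CPM in LKB1-deficient replicates 1 to 4, against 586, 41.2, 44.4 and 56.4 CPM in control replicates 1 to 4 (log2 fold change 0.17 ± 1.07, adjusted p = 0.924). LKB1-deficient replicates 3 and 4 and control replicate 1 were high for both genes, and the other libraries were low. These 2 genes were chosen for naming after their values were seen. Both lie on chromosome 17 of GRCm38, Rps2 at chr17:24718116-24721929 and Rps18 at chr17:33951999-33956001. The labels give no strain for any library, so these values cannot be set against the mice's strain background.

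**Figure D4:**
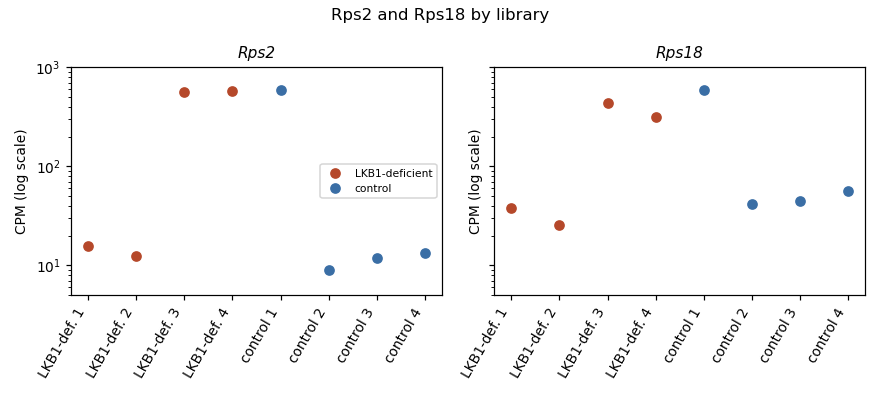
CPM of Rps2 and Rps18 in each library on a log axis, LKB1-deficient libraries in red on the left and control libraries in blue on the right. LKB1-deficient replicates 3 and 4 and control replicate 1 lie between 316 and 597 CPM, and all other libraries between 8.94 and 56.4 CPM.

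Of 8 paralogs, some of which replace a ribosomal protein in particular tissues, 6 were tested, 1 (16.7%) fell and 1 (16.7%) rose. The shares over all tested genes were 10.1% and 12.4%. Rpl22l1, the paralog of Rpl22, had 221, 151, 215 and 197 CPM in LKB1-deficient replicates 1 to 4, against 292, 271, 349 and 362 CPM in control replicates 1 to 4, and fell 1.62-fold (adjusted p = 0.0171). It thus lay in the same direction as Rpl22 itself. It kept its call with the longest transcript length trend removed (-0.53, adjusted p = 0.026) and not with the principal transcript length trend removed (-0.28, adjusted p = 0.126).

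Rpl7l1, which resembles Rpl7, went the other way. It had 246, 313, 303 and 350 CPM in LKB1-deficient replicates 1 to 4, against 175, 212, 159 and 168 CPM in control replicates 1 to 4, and rose 1.7-fold (log2 fold change 0.76 ± 0.15, adjusted p = 0.0109) with no overlap. Its call held with each of the 8 libraries left out, under total count scaling (log2 fold change 0.59, adjusted p = 0.0197) and with either length trend removed (0.85 and 0.78), but not without both LKB1-deficient replicates 2 and 4 (adjusted p = 0.0876). Rpl7 itself fell 1.5-fold (adjusted p = 0.0289). The difference between the pair was not tested.

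Rps27l, a p53 target in mouse and human cells, was 619 ± 70.7 CPM in LKB1-deficient and 739 ± 64.5 CPM in control libraries (adjusted p = 0.207), and Rpl36al was 303 ± 44.5 and 395 ± 28.6 CPM (adjusted p = 0.0804). Rpl39l and Rps4l were low and did not pass (adjusted p = 0.535 and 0.571). Rpl10l and Rpl3l, known from testis and from muscle, were under the count filter: Rpl10l was at 0 in every library, and Rpl3l was at 0 in all LKB1-deficient libraries and at most 0.303 CPM in control libraries. Rps27rt was at 0 in every library. Rpl37rt and Rps19bp1 were tested and did not pass (adjusted p = 0.0531 and 0.165).

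Fold changes differed with the level of a gene. Of the 45 subunit genes with a mean of at least 100 CPM, 21 (46.7%) fell and 24 did not pass, with a median log2 fold change of -0.47. Of the 32 below 100 CPM, 3 (9.38%) fell and 2 (6.25%) rose, with a median of -0.19. The share of 9.38% stood near the 10.1% of all tested genes that fell, while 12.4% of all tested genes rose. Across the 77 genes the Spearman correlation of log2 level with log2 fold change was -0.54, a description over genes that share the same 8 libraries and no test. Low genes also shared more 3' sequence with other genes (Spearman -0.43).

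The 40 subunit genes with under 50% of their 3' stretches in other genes had a median level of 451 CPM. Of these, 16 (40%) fell and 24 did not pass (median log2 fold change -0.44). The 37 genes with 50% or more had a median level of 48.8 CPM, and 8 (21.6%) fell and 2 (5.41%) rose (median -0.31). These shares stood beside 10.1% lower and 12.4% higher over all tested genes. The part that shared reads play in these differences was not tested.

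**Figure D5:**
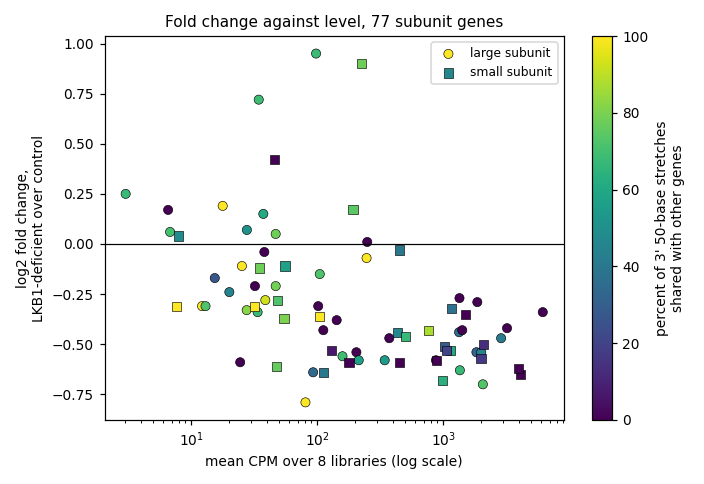
Log2 fold change of LKB1-deficient over control (y axis) against mean CPM over 8 libraries (x axis, log scale) for 77 subunit genes, circles for the large and squares for the small subunit, coloured by the percent of 50-base stretches near the 3' end that occur in other genes. Most genes above 100 CPM lie below 0, and genes under 100 CPM scatter on both sides.

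Genes that fell were found both with and without the pyrimidine run. Of 27 subunit genes with a run at the annotated start, 5 (18.5%) fell and 22 did not pass (median log2 fold change -0.31). Of 30 without one, 10 (33.3%) fell, 1 (3.33%) rose and 19 did not pass (median -0.37). Among all tested genes 10.1% fell and 12.4% rose. Most mammalian ribosomal protein mRNAs are held to be TOP mRNAs, and an annotated start can lie off the start used in T cells, so a missing run says only that these letters are not in the window. By evolutionary family, 13 of 33 genes (39.4%) with relatives in bacteria fell (median -0.37) and 11 of 44 (25%) without such relatives (median -0.34).

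Related genes outside the rule were read from fixed lists. The rule misses Fau (a ubiquitin-like protein joined to a small subunit protein) and Gnb2l1 (RACK1, on the small subunit). Gnb2l1 fell to 2060 ± 394 CPM in LKB1-deficient libraries, against 3030 CPM on average in control libraries (adjusted p = 0.0451). Fau was 53.5 ± 3.96 and 56.9 ± 8.01 CPM in LKB1-deficient and control libraries (adjusted p = 0.65).

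Of 20 other mRNAs known to start with a TOP motif, 2 fell, 3 rose and 15 did not pass, with a median log2 fold change of 0.00 and a median principal transcript of 1891 bases. Those that fell were Eef1a1, the factor that brings tRNA to the ribosome (log2 fold change -0.63, adjusted p = 0.031), and Naca, which binds new chains (-0.44, adjusted p = 0.0408). Those that rose were Vim, a filament protein (1.88, adjusted p = 0.00317), Pabpc1, which binds poly(A) tails (1.09, adjusted p = 0.011), and Ipo5, a nuclear import receptor (0.41, adjusted p = 0.0352). The shares of 10% and 15% stood near the 10.1% and 12.4% of all tested genes.

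Of 10 tested host genes of small nucleolar RNAs, the guides for rRNA modification, 4 fell and 6 did not pass (median -0.40, median principal transcript 487.5 bases). The share of 40% stood beside 10.1% of all tested genes, and 24.9% of those of up to 750 bases that are no member. Gas5 had 826, 782, 868 and 964 CPM in LKB1-deficient libraries and 1270, 1170, 1260 and 1390 CPM in control libraries (adjusted p = 0.0211), and Snhg6 fell to 122 ± 36.4 CPM in LKB1-deficient libraries, against 257 CPM on average in control libraries (adjusted p = 0.0145). Snhg8 fell as well (adjusted p = 0.0195).

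Initiation factors had 23 positive and 9 negative fold changes. Of 32 tested, 7 rose, 1 fell and 24 did not pass (median 0.18, median principal transcript 1955.5 bases). The shares were 21.9% higher and 3.12% lower, beside 12.4% and 10.1% over all tested genes. Eif4g1, the scaffold of the cap-binding complex, had 1950, 1400, 1340 and 1590 CPM in LKB1-deficient libraries and 725, 584, 264 and 568 CPM in control libraries (log2 fold change 1.55, adjusted p = 0.00742). Eif3a, the largest subunit of eIF3, rose by 1.52 (adjusted p = 0.0205), and Eif3k, among its smaller subunits, fell (-0.50, adjusted p = 0.0394).

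Of 10 tested regulators of TOP mRNAs, 3 rose and 7 did not pass (median 0.54, median principal transcript 4464 bases). The share of 30% stood beside 12.4% higher over all tested genes, and 19.9% of those over 3000 bases that are no member. Larp1, the protein that binds the TOP motif, had 420, 736, 408 and 620 CPM in LKB1-deficient libraries and 341, 311, 203 and 248 CPM in control libraries (log2 fold change 0.98, adjusted p = 0.0189). Rps6kb1, the kinase of Rps6, rose 1.4-fold (adjusted p = 0.0354), and Larp4, which binds poly(A), rose 2.05-fold (adjusted p = 0.0184). Of 14 tested chaperones and ubiquitin ligases of ribosomal proteins, 5 rose, 1 fell and 8 did not pass (median 0.12, median principal transcript 2668.5 bases). Their shares were 35.7% higher and 7.14% lower, beside 12.4% and 10.1% over all tested genes. Huwe1, known from human cells as a ligase that marks unassembled ribosomal proteins, rose 2.57-fold (adjusted p = 0.0159), Heatr3, known in humans as a carrier of RPL5, rose 1.56-fold (adjusted p = 0.0233), and Pdcd2, known from human and fly cells as a chaperone of the Rps2 protein, fell (log2 fold change -0.42, adjusted p = 0.0361). The part of transcript length in the values of these lists was not tested.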

How the data were processed

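Raw read counts, as deposited by the authors in a table for each of the 8 libraries, were the starting point. Per the labels' protocols the libraries are 3' RNA-seq primed with barcoded oligo-dT, and per the submitters' processing notes STAR aligned the reads to mm10. The counting program is not given in the sources used here. Alignments to more than 1 place were tallied on a line of their own, apart from the gene counts. Lines without a gene name (5 per table) stayed out of all sizes and tests; of gene, ambiguous and unannotated reads together, reads outside genes were 14.9% to 17.5% in LKB1-deficient and 12.1% to 14.3% in control libraries, and ambiguous reads 0.382% to 0.456% and 0.491% to 0.552%. The protocol mentions no molecular identifiers, and PCR copies can thus enter the counts. Gene counts were 3454388 to 12211930 per library, and pairs of libraries within a group differed beyond sampling noise.

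Groups came from the titles. Genes passing filterByExpr (minimum count 10, total 15) were scaled by TMM and compared in R 4.3.3 with edgeR 4.0.16 (robust quasi-likelihood, no covariates), with Benjamini-Hochberg adjustment over 10396 genes and a threshold of 0.05. The SE of a log2 fold change is its size over the square root of F. Lengths and coordinates come from GENCODE vM21 on GRCm38 (mm10), with lengths for 99.6% of tested genes, and length trends were removed by lowess (span 0.3). Shared sequence is the percent of 50-base stretches, in the last 200 bases of the principal transcript, found in other annotated genes. Start windows are RefSeq's (GRCm38.p6). The test was checked on simulated counts, with changed genes drawn from all tested genes. It recovered 13.4% of 1.5-fold, 61.2% of 2-fold and 93.9% of 4-fold changes, with 9 false calls among 121. A gene that did not pass may thus still have changed by about 1.5-fold.

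The members and lists were chosen with earlier results of these data known. Named were Stk11, all paralogs, 16 members with set roles, the 3 highest and 3 lowest tested in each subunit, the called members with the 5 smallest p and 3 largest fold changes by subunit and direction, and up to 3 called genes per list and direction. Rps2, Rps18 and members named only to complete a count were added after their values were seen. A few genes within this naming rule are left out of the text. Alternatives were DESeq2 1.42.0, voom in limma 3.58.1, upper quartile, total count and member-free TMM scaling, no filter, a mean CPM of 10, thinning to 3454388 counts, a replicate block, a term for the identifier prefix (ET or EU), each library left out, LKB1-deficient replicates 2 and 4 both left out, EU libraries alone, the length trend, an adjusted p of 0.01 and, added later, the principal transcript length.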

Additional observations from a re-analysis of the deposited data

Results flagged for a closer look

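In 9 of 124 sets of 4 replicates of a named gene, 1 library lay farther from the other 3 than Dixon's 95% limit, which chance passes in about 1 set of 20. Control replicate 1 was high for Rps2, at 597 CPM against 8.94 to 13.2 CPM in the other control libraries, and for Rps18, at 586 CPM against 41.2 to 56.4 CPM. Control replicate 1 was also low for Rpl36a, at 85.4 CPM against 107 to 111 CPM. Control replicate 2 was high for Rpsa, at 84.4 CPM against 46.5 to 49.9 CPM, and low for Rpl36al, at 353 CPM against 403 to 413 CPM. Control replicate 4 was low for Rpl22, at 2100 CPM against 2200 to 2210 CPM. LKB1-deficient replicate 4 was high for Rpl3, at 57.7 CPM against 31.6 to 34.3 CPM in the other LKB1-deficient libraries. LKB1-deficient replicate 3 was low for Vim, at 726 CPM against 1120 to 1200 CPM, and for Pabpc1, at 1500 CPM against 2110 to 2190 CPM.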

How the results depend on the processing

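With every library thinned to 3454388 counts, 26 members were lower, 11 of the large and 13 of the small subunit, and 23 of the 26 were among the 25 lower at full depth. The 25 lower members became 35 with upper quartile scaling, 37 with total count scaling, 16 with the replicate block, 14 in EU libraries alone, 5 and 3 with the length and principal transcript length trends removed, 0 without both LKB1-deficient replicates 2 and 4, 1 at an adjusted p of 0.01, and 2 to 28 with single libraries left out. The 3 higher members became 1 with total count scaling, 5 with the principal length trend removed, 0 without both LKB1-deficient replicates 2 and 4, 0 at an adjusted p of 0.01, and 1 to 3 with single libraries left out. The 11 lower large subunit genes became 17 with upper quartile or total count scaling, 7 in EU libraries alone, 1 and 0 with the length trends removed, 0 without LKB1-deficient replicates 2 and 4, 1 at 0.01, and 1 to 13 with single libraries left out. The 13 lower small subunit genes became 7 with the replicate block, 8 with the prefix term, 6 in EU libraries alone, 3 with either length trend removed, 0 without LKB1-deficient replicates 2 and 4, 0 at 0.01, and 1 to 14 with single libraries left out. Over all genes, 2337 calls became 260 without LKB1-deficient replicates 2 and 4, 437 at 0.01, and 1011 to 2825 with single libraries left out. The median of -0.35 became -0.52 with total count scaling, which moved the median of all genes to -0.16 (members less all genes -0.36), and -0.07 and 0.00 with the length trends removed. The difference in share moved between -2.65 and -2.13 percentage points with single libraries left out. It was -1.8 percentage points without both LKB1-deficient replicates 2 and 4. Lower members were 35 with DESeq2, 28 with limma-voom and 24 to 29 with the other filters.

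Correlations of same-numbered deviations had mixed signs, at -0.276, 0.329, 0.317 and -0.143 for replicates 1 to 4. With 4 libraries per group they cannot decide whether replicate numbers pair the libraries. Within groups some libraries were closer, by chi-square per degree of freedom of their gene counts. This was 10.9 for LKB1-deficient replicates 2 and 4 and 13.4 for 1 and 3. It was 11.2 for control replicates 3 and 4 and 23.8 for 1 and 2, against 30.2 to 46.2 for all other pairs. Whether close libraries share an animal or batch is not stated, so the 4 per group may not be independent. The 16 members lower with the replicate block were all among the 25.

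Among named genes, 1120 values kept direction and call, 323 lost the call, 17 gained it and 51 changed sign. With upper quartile scaling Rpl30 became -0.04 and Rps28 -0.06; with total count scaling Rpl3 became -0.04, Rpl30 -0.10 and Rps28 -0.13. With the length trend removed the values were 0.20 for Rps27l, 0.05 for Rplp2, Rpl39 and Rpl10, 0.11 for Rpl5, 0.01 for Rps6, 0.06 for Rpsa, 0.08 for Rps27 and 0.23 for Rps27a. With the principal length trend removed they were 0.05 for Rpl36al, 0.18 for Rps27l, 0.01 for Rplp2 and Rpl39, 0.06 for Rpl5, 0.04 for Rpl10, 0.03 for Rps6, 0.07 for Rpsa, 0.09 for Rps27, 0.27 for Rps27a and 0.13 for Rps12. Without both LKB1-deficient replicates 2 and 4, Stk11 was 0.18, Rpl39l 0.12, Rpl5 0.05, Rpl3 -0.10 and Rps28 -0.01. In EU libraries alone Stk11 was 0.10, Rpl30 -0.04 and Rpl26 -0.04. With single libraries left out, values ran from -0.22 to 0.08 for Stk11, -0.12 to 0.05 for Rpl5, -0.09 to 0.33 for Rpl3, -0.31 to 0.13 for Rpsa, -0.08 to 0.12 for Rpl30, -0.22 to 0.23 for Rps28 and -0.53 to 2.11 for Rps18. The cause of these changes was not tested.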

Other observations

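Across the 8 libraries the levels of Rps2 and Rps18 ran together (Pearson r = 0.974 on log2 of CPM plus 1, a description over libraries that fall into a high and a low set, with no test). The genes whose levels were most like that of Rps2 by this measure, chosen after its values were seen, were Rps18, D17H6S56E-5 (r = 0.945), Per2 (r = 0.934) and Ppil1 (r = 0.893). D17H6S56E-5 had 93.4, 119, 205 and 210 CPM in LKB1-deficient libraries 1 to 4, against 163, 84.1, 86.3 and 88.1 CPM in control replicates 1 to 4. Ppil1, which like Rps2 and Rps18 lies on chromosome 17, had 58.5, 49.5, 75.5 and 79.3 CPM in LKB1-deficient libraries 1 to 4, against 68.3, 46.6, 58.1 and 58.7 CPM in control replicates 1 to 4. Usp49, also on chromosome 17, was the gene most like Rps18 after Rps2 (r = 0.91), at 3.38, 2.91, 5.04 and 5.12 CPM in LKB1-deficient libraries 1 to 4, against 4.94, 3.66, 4.24 and 3.77 CPM in control replicates 1 to 4. For each of these genes LKB1-deficient replicates 3 and 4 and control replicate 1 held the 3 highest values. The 3' sequence of Rps2 is shared with 40 other annotated genes, and 78.1% of its stretches occur in them. The 7 tabulated ribosomal protein symbols with -ps summed to 20 to 24.8 CPM in LKB1-deficient libraries and 21.1 to 29.8 CPM in control libraries.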
